A study of Mus musculus with 18 samples.

Results

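The lung transcripts of 10 CXC chemokine genes were followed: Cxcl1, Cxcl2, Cxcl3, Cxcl5, Cxcl9, Cxcl10, Cxcl13, Cxcl14, Cxcl15 and Cxcl16. Cxcl12 was left out of the group. The genes were chosen by family around Cxcl5, whose lower level in exposed lungs had already been seen in these arrays, so the contrasts of Cxcl5 with vehicle are given as a description and without a test. The 10 genes stand among 20660 named genes on the array and are measured by 1 probe each, except Cxcl9, which has 2. The lungs came from 18 male MutaMouse animals, a transgenic reporter strain, aged about 12 weeks. Vehicle mice received olive oil by gavage (n = 5). The exposed mice received a mixture of 4 polycyclic aromatic hydrocarbons in olive oil, namely benzo[a]pyrene (BaP), benz[a]anthracene, benzo[b]fluoranthene and chrysene, at 12.5 (low dose, n = 4), 25 (medium dose, n = 5) or 50 mg BaP equivalents/kg-bw/day (high dose, n = 4). All groups were dosed daily for 28 days, and lungs were taken 72 h after the last dose. RNA came from random sections of lung, for which the paper names the right lobe. It mixes cell types, so fewer cells of a type and less RNA per cell cannot be told apart. Each array held Cy5-labelled lung RNA of 1 mouse and Cy3-labelled reference RNA from 11 mouse cell lines. A value below is the log2 ratio of lung to reference after loess normalization, and 0 means equal signal in both. Because each probe binds differently, values of one gene are compared between mice and never with another gene. The lung label fitted its markers. In vehicle mice the mean log2 ratio of the 9 markers of alveolar type 2 cells ranged from 4.92 to 5.04. That of the 6 measured type 1 markers ranged from 4.77 to 5.12, so both were far above the reference. All of these markers were above background, as were from 51.5% to 61.1% of probes on an array. Vehicle mouse 3 stood apart in Cxcl10 and in interferon-stimulated genes, and results that rest on it are given with and without it.

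CXC chemokines are small secreted proteins that direct leukocyte migration through G protein-coupled receptors. Cxcl1, Cxcl2, Cxcl3, Cxcl5 and Cxcl15 (lungkine) belong to the subgroup that attracts neutrophils, and Cxcl1, Cxcl2, Cxcl3 and Cxcl5 signal through Cxcr2. In lung, Cxcl5 is made mainly by epithelial cells, and Cxcl15 is an epithelial product for which lung is the best known source. Cxcl9 and Cxcl10 are interferon-induced ligands of Cxcr3 on T and natural killer cells. Cxcl13 draws B cells through Cxcr5, Cxcl14 is produced constitutively in epithelia, and Cxcl16 is a membrane-bound ligand of Cxcr6 that can be shed. In the mouse genome, Cxcl5, Cxcl3, Cxcl15, Cxcl1 and Cxcl2 lie in one cluster on chromosome 5, with Cxcl9, Cxcl10 and Cxcl13 further along the same chromosome, whereas Cxcl14 and Cxcl16 lie on chromosomes 13 and 11.

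The start-proximal promoters of 5 members are shown because they differ in the motif matches they hold. Sequences are from RefSeq (GRCm38.p6), which gave a promoter window for 8 of the 10 members, but not for Cxcl5 or Cxcl16. Each sequence runs 5′ to 3′ on the strand of the gene and ends at the base before the annotated start. Capitals mark matches on either strand to the NF-kappaB consensus, to the interferon-stimulated response element (GAAANNGAAA) or to the TATA box (TATAAA). The windows are Cxcl1 at chr5:90891145-90891244 (plus strand), Cxcl2 at chr5:90903789-90903898 (plus strand), Cxcl3 at chr5:90786001-90786100 (plus strand), Cxcl10 at chr5:92348890-92349139 (minus strand) and Cxcl13 at chr5:95956839-95956938 (plus strand).

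Cxcl1: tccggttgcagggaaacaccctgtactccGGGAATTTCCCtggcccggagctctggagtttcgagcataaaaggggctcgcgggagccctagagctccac
Cxcl2: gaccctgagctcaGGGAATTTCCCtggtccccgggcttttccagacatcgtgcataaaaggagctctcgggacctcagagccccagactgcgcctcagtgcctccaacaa
Cxcl3: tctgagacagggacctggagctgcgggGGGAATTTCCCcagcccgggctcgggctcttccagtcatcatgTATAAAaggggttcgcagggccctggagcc
Cxcl10: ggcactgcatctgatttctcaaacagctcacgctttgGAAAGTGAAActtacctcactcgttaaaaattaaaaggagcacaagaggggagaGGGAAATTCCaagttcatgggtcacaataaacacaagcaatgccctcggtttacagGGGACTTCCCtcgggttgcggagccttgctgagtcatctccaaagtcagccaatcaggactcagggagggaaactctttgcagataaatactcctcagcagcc
Cxcl13: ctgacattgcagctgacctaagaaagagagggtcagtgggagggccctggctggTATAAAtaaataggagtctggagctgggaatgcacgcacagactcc

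Cxcl1, Cxcl2 and Cxcl3 each held the NF-kappaB consensus in the same 11-base stretch, where overlapping matches on the opposite strands were 1 base apart. It began 71 bases before the start in Cxcl1, 97 in Cxcl2 and 73 in Cxcl3. Cxcl10 held 2 separate NF-kappaB matches, beginning 159 and 103 bases before the start, and a response element match beginning 213 bases before it. In the 250 bases before the start, 3.9% of all 32851 RefSeq windows held the NF-kappaB consensus, 2.98% the response element and 12.4% TATAAA. Among the members, Cxcl14 also held the response element letters, and Cxcl3, Cxcl9, Cxcl13 and Cxcl15 held TATAAA. Cxcl9, though interferon-induced, held no response element match, and Cxcl9, Cxcl13, Cxcl14 and Cxcl15 held no NF-kappaB match. These matches describe the letters only.

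Of the 9 members other than Cxcl5, 0 were called at the low dose, 1 at the medium dose (Cxcl13, lower than in vehicle) and 0 at the high dose. A call needed a change of at least 1.5-fold and a limma p-value that was at most 0.05 after Benjamini-Hochberg adjustment over all probes. Over all 55681 probes the same rule called 0.0898%, 0.726% and 1.2% in order of dose. Unadjusted limma p-values were below 0.05 for 1 of the 9 at the low dose and 3 at each of the higher doses. The share of all probes at that level was not counted, so such counts here and below stand without a baseline. The median log2 fold change of the 9 was -0.13, -0.18 and -0.21 in order of dose, against 0.00 for all probes at each dose. Without vehicle mouse 3, 0 of the 9 were called at any dose. Signal set a limit for 3 members. Cxcl2 was well above background in Cy5 on 0 of 18 arrays, Cxcl3 on 6, and Cxcl9 on 2 and 5 with its 2 probes. The other 7 members exceeded background on every array of at least 1 group.

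**Figure D1:**
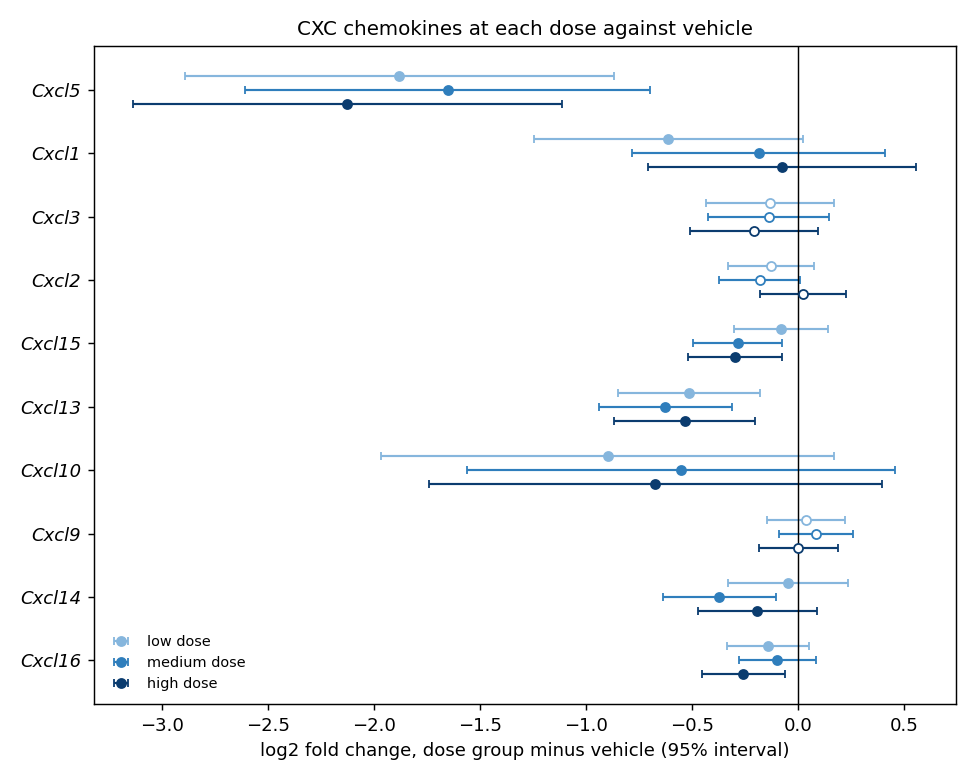
Log2 fold change of each member at the low, medium and high dose against vehicle (x axis), with 95% intervals from limma and open symbols for members whose signal was not well above background on all arrays of any group. Cxcl5 sits between -1.65 and -2.12 at the 3 doses and Cxcl13 between -0.51 and -0.63, while Cxcl2, Cxcl3 and Cxcl9 stay within 0.21 of 0.

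Cxcl5, an epithelial neutrophil chemoattractant, was lower at every dose. The log2 ratios of the vehicle mice 1 to 5 were -2.35, -0.39, -0.02, -0.95 and -0.71. At the low dose they were -1.79, -3.49, -2.82 and -2.94 (mice 6, 7, 9 and 10). At the medium dose they were -0.64, -3.83, -3.39, -2.46 and -2.36 (mice 11 to 15), and at the high dose -3.30, -2.91, -3.09 and -2.72 (mice 16, 17, 18 and 20). All 4 high-dose mice lay below all vehicle mice. The low and medium groups overlapped with vehicle, because low-dose mouse 6 and medium-dose mouse 11 lay above vehicle mouse 1.

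The group means of Cxcl5 were -0.88 ± 0.89 in vehicle (SD, n = 5), -2.76 ± 0.71 at the low (n = 4), -2.53 ± 1.23 at the medium (n = 5) and -3.01 ± 0.25 at the high dose (n = 4). The fitted log2 fold changes were -1.88 (SE 0.49), -1.65 (SE 0.46) and -2.12 (SE 0.49), that is 3.68-fold, 3.14-fold and 4.36-fold lower than vehicle. These folds come from intensities without background subtraction. With the scanner software's ratio the log2 fold changes were -2.54 (SE 0.89), -2.47 (SE 0.84) and -2.74 (SE 0.89). The levels did not order by dose. The high dose differed from the low dose by -0.25 (95% interval -1.31 to 0.82), from the medium dose by -0.47 (-1.48 to 0.54), and the medium from the low dose by 0.23 (-0.78 to 1.24), with adjusted p-values of 0.977, 1 and 0.994 by limma. Signal was well above background on 17 of 18 arrays, medium-dose mouse 12 being the exception.

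Mice of every group shared each of the 3 slides, and the mean of Cxcl5 was lower at every dose than in vehicle on each. At the high dose the within-slide differences from vehicle were -1.74 on slide 1, -2.61 on slide 2 and -2.01 on slide 3. For the medium dose they were -0.87, -2.44 and -1.65, and for the low dose -1.27, -2.34 and -2.23. With the slide as a block the fold changes were -1.88, -1.65 and -2.13 for the low, medium and high dose. Arrays of one dose group all sat in the same slide column, so column and dose cannot be told apart.

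**Figure D2:**
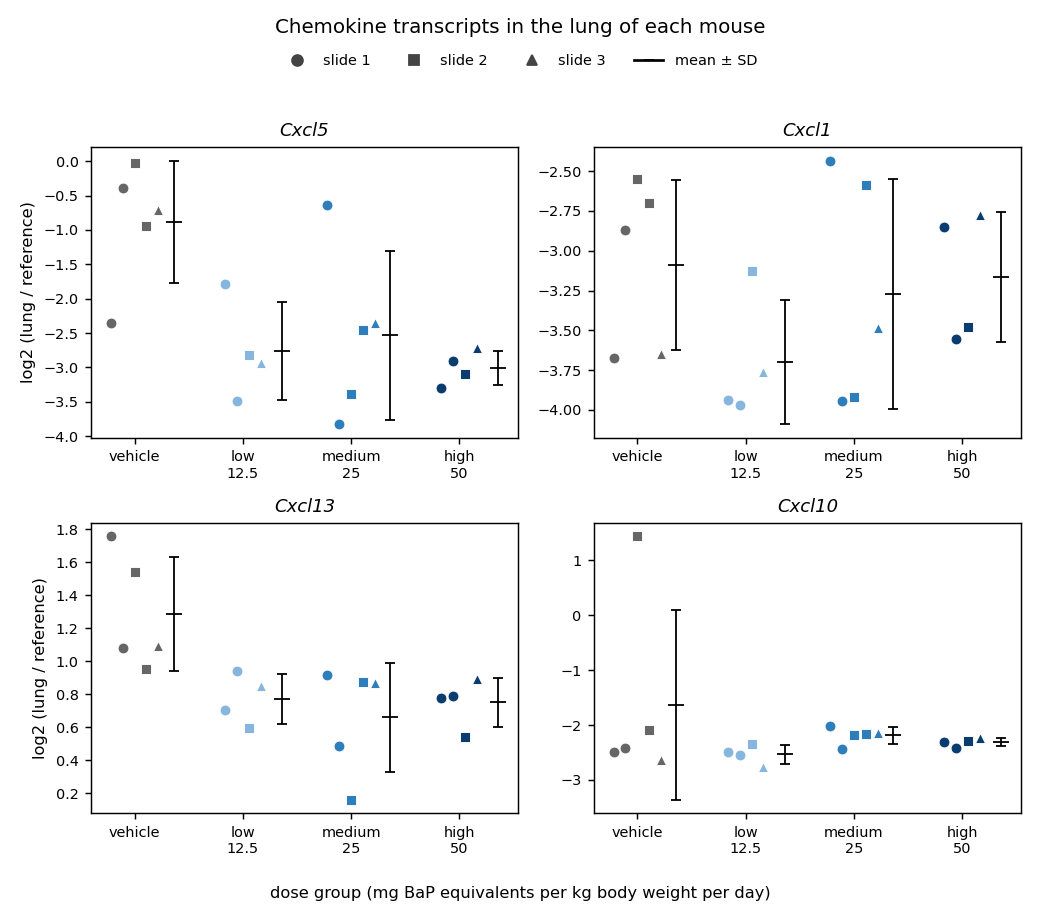
Log2 ratio of lung to reference RNA (y axis) in each mouse by dose group (x axis), with symbols for the slide and black bars for the mean ± SD (n = 5, 4, 5 and 4). For Cxcl5 all high-dose mice lie below all vehicle mice, for Cxcl13 all exposed mice do, Cxcl1 overlaps throughout, and Cxcl10 is set apart by vehicle mouse 3 at 1.44.

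Cxcl1, another Cxcr2 ligand, did not pass the test at any dose. It was well above background on all 18 arrays, but its Cy5 intensity was low, from 115 (low-dose mouse 7) to 460 (high-dose mouse 20). Its log2 ratios were -3.68, -2.87, -2.55, -2.70 and -3.65 in vehicle mice 1 to 5. They were -3.94, -3.97, -3.13 and -3.76 at the low dose, -2.43, -3.94, -3.92, -2.59 and -3.48 at the medium dose, and -2.85, -3.55, -3.48 and -2.78 at the high dose. The groups overlapped at all doses. The log2 fold changes were -0.61 (SE 0.30, adjusted p = 0.643), -0.18 (SE 0.29, adjusted p = 0.854) and -0.07 (SE 0.30, adjusted p = 0.95) by limma. The 95% interval at the high dose ran from -0.71 to 0.56.

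Within dose groups, Cxcl1 and Cxcl5 deviated together. After the group means were subtracted, Pearson's r over 18 arrays was 0.63, and 0.45 without the 2 mice farthest out in Cxcl5 (medium-dose mouse 11 and vehicle mouse 1). Mouse 11 was the highest of its group in Cxcl1 and in Cxcl5, and vehicle mouse 1 the lowest of its group in both. With the slide means removed as well, r was 0.67. The arrays share slides and the reference RNA, and r is given as a description. Against the other members, r with Cxcl5 ranged from -0.20 (Cxcl14) to 0.35 (Cxcl10).

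**Figure D3:**
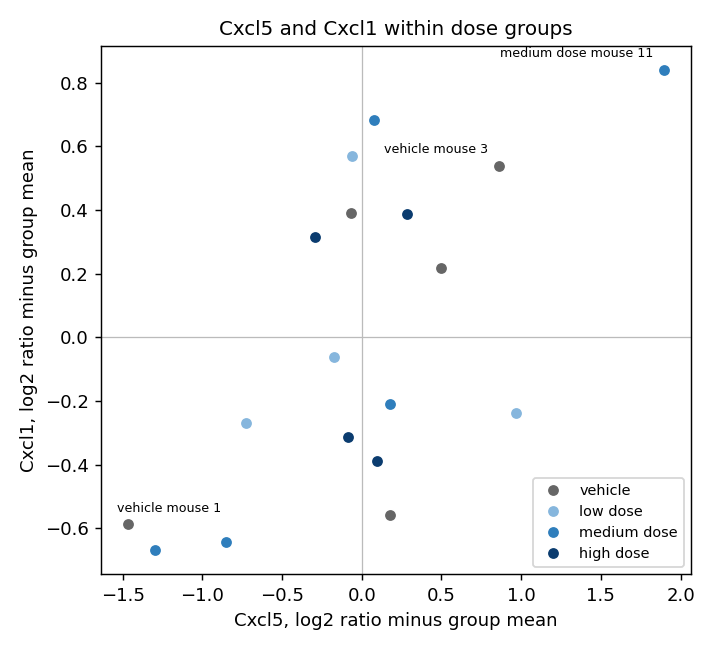
Deviation of each mouse from its group mean for Cxcl5 (x axis) and Cxcl1 (y axis), in log2 units, for 18 mice coloured by dose group. Medium-dose mouse 11 lies at the top right and vehicle mouse 1 at the bottom left of a rising cloud with r = 0.63.

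Of 14390 named genes with signal above background, Cxcl1 ranked 40 in this likeness to Cxcl5. The 5 most alike over the same 18 arrays were Rhou (r = 0.80), Col14a1, a collagen chain (r = 0.77), 1700022I11Rik (r = 0.77), Gcdh, a mitochondrial enzyme of lysine breakdown (r = 0.76), and Alkal1, a ligand of the Alk receptor (r = 0.75). Without mouse 11 and vehicle mouse 1 these 5 genes kept r between 0.70 and 0.75. As the highest of many values they are a description and carry no test.

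Cxcl2 and Cxcl3, which share the NF-kappaB stretch with Cxcl1, gave too little signal for a fold. Cxcl2 was not well above background on any array. Cxcl3 was well above background in 3 of 5 vehicle, 1 of 4 low-dose, 2 of 5 medium-dose and 0 of 4 high-dose mice. Neither was called at any dose.

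Cxcl15, the lung epithelial member, was well above background on all 18 arrays. It ranged from 5.59 to 6.03 in vehicle (median 5.80), from 5.52 to 6.04 at the low, 5.42 to 5.75 at the medium and 5.43 to 5.68 at the high dose. The exposed groups overlapped with vehicle. At the medium and high doses the overlap came through vehicle mouse 4 at 5.59, while low-dose mouse 7 lay above all vehicle mice. The log2 fold changes were -0.08 (SE 0.11, adjusted p = 0.915), -0.28 (SE 0.10, adjusted p = 0.136) and -0.30 (SE 0.11, adjusted p = 0.138) by limma and did not pass. The 95% interval at the high dose ran from -0.52 to -0.08, and the two-sided exact permutation p was 0.508, 0.0397 and 0.0238 in order of dose, among the 27 such comparisons over the members other than Cxcl5. Of the 9 alveolar type 2 cell markers, 8 had a lower fitted level at the high dose with a median of -0.17, and 0 were called (4 at an unadjusted p below 0.05). Abca3 (-0.35, adjusted p = 0.0335) and Slc34a2 (-0.37, adjusted p = 0.0401) passed the adjusted p by limma but stayed below 1.5-fold. Etv5 was higher, at 0.34 (adjusted p = 0.0884). All 6 measured type 1 markers were lower with a median of -0.25, and 4 of 6 measured club cell markers with a median of -0.08, again with 0 called (4 and 0 at an unadjusted p below 0.05). At the medium dose the medians of the type 2, type 1 and club cell markers were -0.25, -0.17 and -0.25. There 0 were called, with 6, 2 and 2 at an unadjusted p below 0.05. Abca3 measured -0.35 at that dose (adjusted p = 0.0264), below 1.5-fold. Among mice, the mean log2 ratio of the type 2 markers ranged from 4.92 to 5.04 in vehicle and from 4.65 to 5.05 at the high dose. That of the club cell markers ranged from 5.64 to 6.55 and from 5.56 to 6.51. The part of these epithelial shifts in the values of Cxcl5 and Cxcl15 was not tested.

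Cxcl13, the B cell attractant, fell at the medium dose. Its log2 ratios were 1.76, 1.08, 1.54, 0.95 and 1.09 in vehicle mice 1 to 5. They were 0.70, 0.94, 0.60 and 0.85 at the low dose, 0.91, 0.49, 0.16, 0.88 and 0.87 at the medium dose, and 0.78, 0.79, 0.54 and 0.89 at the high dose. All exposed mice lay below all vehicle mice, by a margin as small as 0.95 against 0.94. Vehicle mice 1 and 3 were the highest of all.

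The log2 fold changes of Cxcl13 were -0.51 (SE 0.16, adjusted p = 0.308), -0.63 (SE 0.15, adjusted p = 0.0224) and -0.53 (SE 0.16, adjusted p = 0.0649) by limma. The two-sided exact permutation p was 0.0159, 0.00794 and 0.0159 in order of dose, against a smallest possible 0.00794 in each case. These were among the same 27 comparisons. The decline did not grow with dose, since high and low differed by -0.02 (95% interval -0.37 to 0.33). Within slides, the medium dose differed from vehicle by -0.72, -0.73 and -0.23, and with the slide as a block by -0.63. Signal was well above background in all 5 vehicle mice but in 3 of 4 low-dose, 3 of 5 medium-dose and 3 of 4 high-dose mice, which left the 4 lowest values of the exposed mice close to background. Without vehicle mouse 3, the medium-dose value was -0.56 with an adjusted p of 0.0608. The medium-dose call was also lost with normexp correction (-0.52) and scale normalization (-0.58), both under 1.5-fold, with median centring (adjusted p = 0.417), with only the groups compared (adjusted p = 0.0655) and with the scanner software's ratio, which moved the value to -1.44 (adjusted p = 0.11), and to -1.65 for the high dose.

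Cxcr5, the receptor of Cxcl13, moved the other way. It rose at the medium dose by 0.64 (SE 0.18, adjusted p = 0.0463) and at the high dose by 0.72 (SE 0.19, adjusted p = 0.0314). Of 7 B cell markers, 6 had a higher fitted level at the medium dose with a median of 0.62, and 2 rose, the surface protein gene Ms4a1 by 0.70 (adjusted p = 0.0258) and the B cell receptor component Cd79b by 0.70 (adjusted p = 0.0419). Over mice, the mean of the 7 B cell markers ranged from 0.78 to 1.65 in vehicle and from 1.28 to 1.83 at the medium dose. The 6 fibroblast markers were all lower at the medium dose with a median of -0.63, and 3 fell, namely the collagen chains Col1a1 (-0.86, adjusted p = 0.00176) and Col1a2 (-0.65, adjusted p = 0.0115) and the matrix proteoglycan Dcn (-0.94, adjusted p = 0.0176). Their mean ranged from -0.20 to 0.06 in vehicle and from -0.83 to -0.38 at the medium dose, without overlap. How often the means of other gene sets part in this way was not counted. At this dose the rule called 0.726% of all probes, and 45.1% of named genes had a lower fitted level. Lymphotoxins, which drive Cxcl13 in lymphoid stroma, were not called, with Lta at 0.34 (adjusted p = 0.0232, below 1.5-fold) and Ltb at 0.49 (adjusted p = 0.1) at the medium dose. The part of either cell type in the level of Cxcl13 was not tested.

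Cxcl10 was not called at any dose, and 1 vehicle mouse carried far more of it than any other animal. The vehicle mice 1 to 5 measured -2.48, -2.43, 1.44, -2.08 and -2.63. The low-dose mice ranged from -2.76 to -2.35, the medium-dose mice from -2.44 to -2.02 and the high-dose mice from -2.41 to -2.23. Vehicle mouse 3 was 14.3-fold above the mean of the other 4 vehicle mice, and no other mouse exceeded -2.02. The fold changes of -0.90 (SE 0.51, adjusted p = 0.709), -0.55 (SE 0.48, adjusted p = 0.68) and -0.67 (SE 0.51, adjusted p = 0.605) rested on that mouse. Without it they were -0.13, 0.22 and 0.10, with adjusted p-values of 0.879, 0.349 and 0.791. The two-sided exact permutation p with all mice was 0.421, 0.913 and 0.881.

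The same mouse was high in interferon-stimulated genes, from a list written after the Cxcl10 value had been seen. Of 18 such genes, 14 were higher in vehicle mouse 3 than in all 17 other mice. The share of all named genes highest in this mouse was not counted, so the 14 stand without a baseline. Ifit1, an RNA-binding antiviral protein, was 7.31-fold, Isg15, a ubiquitin-like modifier, 6.96-fold and Irf7, a transcription factor of interferon genes, 3.94-fold above the mean of the other vehicle mice. Gbp2 and Irf1, which respond strongly to interferon gamma, were 0.86-fold and 0.91-fold. Oas2 and Rsad2 also lay inside the range of the other 17 mice, at 1.23-fold and 2.20-fold. The type of interferon was not tested. Cxcl9, the interferon gamma-induced ligand of the same receptor, was at 0.05 in this mouse, inside the range of -0.23 to 0.25 of the other 17, but its probe was dim on most arrays. Cxcl5 was also highest in this mouse, at -0.02. Without it, the fold changes of Cxcl5 were -1.66, -1.44 and -1.91 in order of dose.

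**Figure D4:**
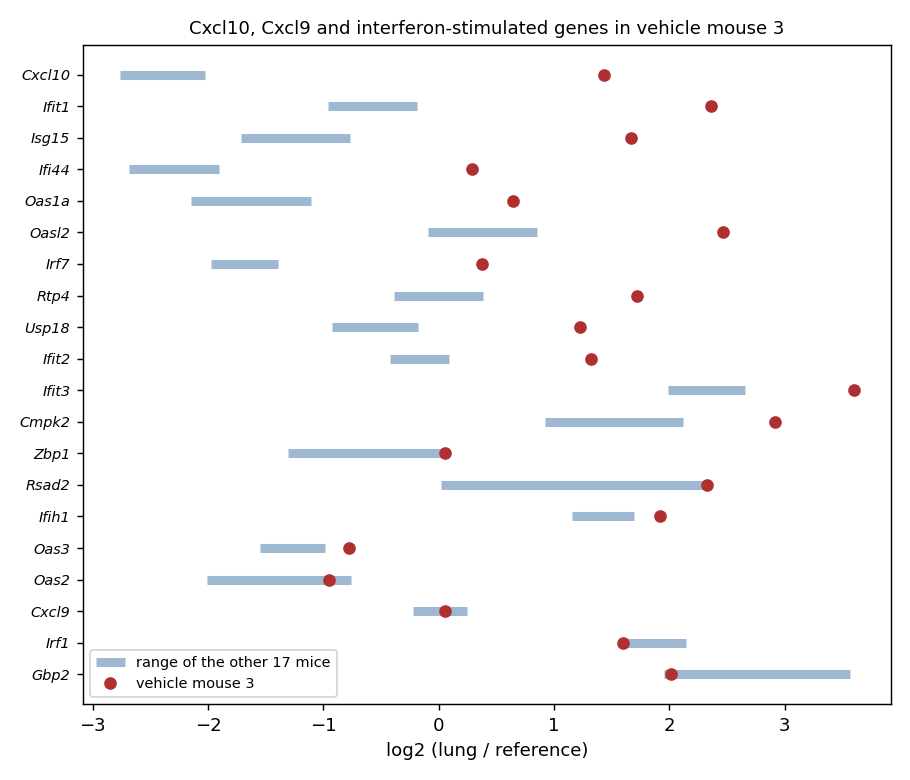
Log2 ratio of lung to reference RNA (x axis) for Cxcl10, Cxcl9 and 18 interferon-stimulated genes (y axis), with vehicle mouse 3 as points and bars for the range of the other 17 mice. Cxcl10, Ifit1 and Isg15 lie far to the right of their bars, while Cxcl9, Gbp2, Irf1, Oas2 and Rsad2 lie within theirs.

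Cxcl14 and Cxcl16 had strong signal on all arrays and small differences. Cxcl14 ranged from 3.26 to 3.76 in vehicle, 3.27 to 3.46 at the low, 2.68 to 3.56 at the medium and 3.14 to 3.36 at the high dose. Its log2 fold changes were -0.05 (adjusted p = 0.967), -0.37 (adjusted p = 0.125) and -0.19 (adjusted p = 0.568), and the medium-dose mice were the most widely spread, with 4 of 5 below all vehicle mice. Cxcl16 ranged from 3.13 to 3.47 in vehicle, 2.91 to 3.36 at the low, 3.06 to 3.26 at the medium and 2.88 to 3.18 at the high dose. Its log2 fold changes were -0.14 (adjusted p = 0.761), -0.10 (adjusted p = 0.696) and -0.26 (SE 0.09, adjusted p = 0.145). At the high dose 3 of 4 mice lay below all vehicle mice, without the gene passing the test. Cxcl13 and Cxcl14 deviated in opposite directions within groups (r = -0.61 over 18 arrays). This was the most negative r among all pairs of members, and it is given as a description. Cxcl13 was well above background on 14 of the 18 arrays.

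**Figure D5:**
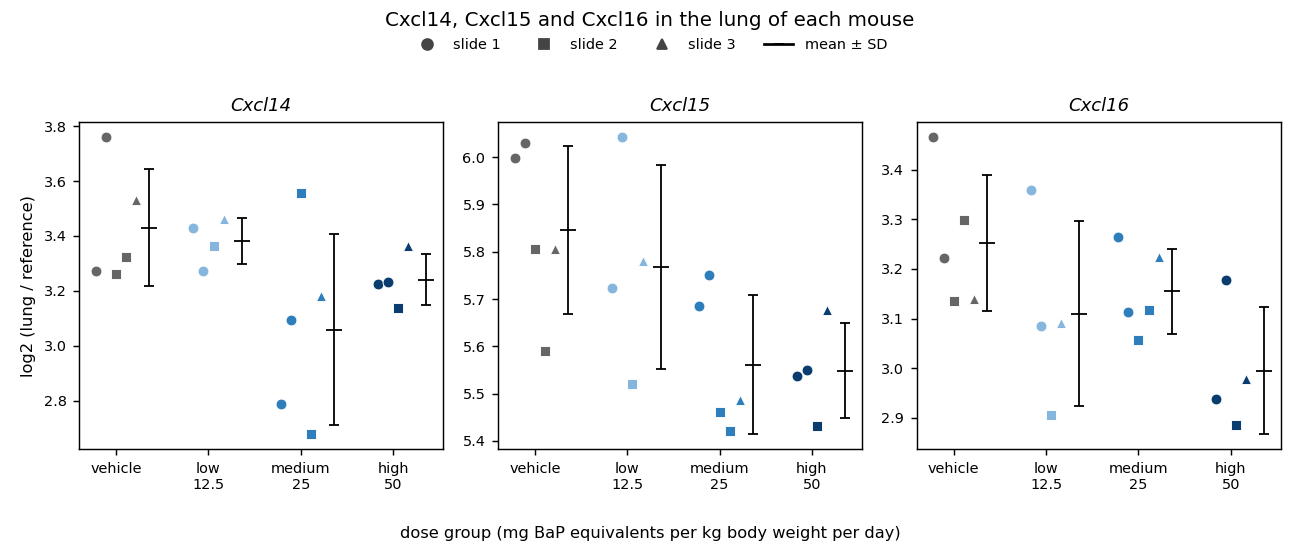
Log2 ratio of lung to reference RNA (y axes, which do not start at 0) for Cxcl14, Cxcl15 and Cxcl16 in each mouse by dose group (x axis), with symbols for the slide and black bars for the mean ± SD (n = 5, 4, 5 and 4). The exposed groups overlap with vehicle for all 3 genes, and the medium-dose mice spread most in Cxcl14.

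Among the 5 receptors of the members, Cxcr6, the partner of Cxcl16, fell at the high dose (-0.62, SE 0.16, adjusted p = 0.0315), and Cxcr5 rose as above. Cxcr1, Cxcr2 and Cxcr3 were not called, with high-dose values of 0.60, 0.10 and 0.08. At the high dose the rule called 1.2% of all probes, and 43.6% of named genes had a lower fitted level. Of 11 T and natural killer cell markers, 8 were lower at the high dose with a median of -0.32, and 1 fell, the granzyme Gzma (-2.25, adjusted p = 0.00208). Prf1, at -0.41 (adjusted p = 0.0409), stayed below 1.5-fold. The mean of the 9 of these markers with signal above background ranged from 0.73 to 1.35 in vehicle and from 0.52 to 0.79 at the high dose. Of 12 measured neutrophil markers, 9 had a higher fitted level at the high dose with a median of 0.25, and 1 rose, the collagenase Mmp8, by 0.98 (adjusted p = 0.0157). The mean of the 11 with signal above background ranged from 1.65 to 2.19 in vehicle and from 2.18 to 2.42 at the high dose. Their part in the level of Cxcl5 was not tested. The neutrophil calcium-binding protein gene S100a8 measured 0.79 (adjusted p = 0.31) and S100a9 0.19 (adjusted p = 0.666).

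Of 33 inducers and regulators of the family, among them the interleukin 17, TNF, interleukin 1 and NF-kappaB genes, 0 were called at any dose. Over all probes the rule called 0.0898%, 0.726% and 1.2% in order of dose. With shares this small, 0 of 33 does not set these genes apart from the array. At an unadjusted limma p below 0.05 they numbered 3, 6 and 6 in order of dose. Their medians were -0.03, 0.03 and 0.01. Nfkb1, which encodes an NF-kappaB subunit, measured -0.35 at the high dose (SE 0.09, adjusted p = 0.0228), below 1.5-fold. The inducers Tnf, at 0.10, and Il1b, at 0.56, did not pass at that dose, and Il17a was not above background on all arrays of any group. Of the 4 measured CXC genes outside the members (Cxcl12, Cxcl17, Pf4 and Ppbp), 0 were called at any dose, and 1 had an unadjusted p below 0.05. Cxcl12 came nearest, at -0.53 at the medium dose (adjusted p = 0.066).

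Cxcl5 is known as a rhythmic transcript of mouse airway epithelium, so clock and glucocorticoid genes were set beside it. Of 19 measured, the numbers called were 6, 9 and 10 in order of dose, against 0.0898%, 0.726% and 1.2% of all probes. The glucocorticoid genes among them, Nr3c1, Tsc22d3 and Fkbp5, were not called at any dose. The clock activator Arntl fell (-1.04, -1.37 and -1.59 in order of dose, adjusted p = 0.0124, 7.05e-05 and 1.35e-05), and the output gene Dbp rose (1.81, 2.17 and 2.22, adjusted p = 0.00393, 5.85e-05 and 4.62e-05). Within dose groups, where the contrast with vehicle is removed, r with Cxcl5 over 18 arrays was 0.10 for Arntl, 0.01 for Dbp, -0.30 for Nr1d1, a clock repressor, and 0.11 for Per3, another. For Tsc22d3 and Fkbp5, which glucocorticoids induce, it was 0.22 and 0.13. Without medium-dose mouse 11 and vehicle mouse 1, r was 0.11 for Arntl, -0.06 for Dbp, -0.43 for Nr1d1 and 0.11 for Per3. For Tsc22d3 and Fkbp5 it was then -0.05 and -0.003. The part of the clock genes in the level of Cxcl5 was not tested.

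Between doses, 0 of the 10 members were called in any of the 3 comparisons by limma. Over all probes the rule called 0% for medium against low, 0.0449% for high against low and 0% for high against medium. At an unadjusted p below 0.05 the members numbered 1, 0 and 1: Cxcl14 between medium and low, at -0.32 (unadjusted p = 0.0271, adjusted p = 0.969), and Cxcl2, whose signal was at background, between high and medium.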

How the data were processed

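The authors deposited, for each of 18 two-colour arrays, spot and local background intensities (medians, both dyes) written by Feature Extraction 11.0.1.1 per the file headers and not background-subtracted. The software's own log10 ratio of the dyes is in the same deposited output. A table of log2 ratios deposited by the authors was set against these values, and its correlation with the log2 ratios used here was at least 0.995 on each array, with the same scale and direction and medians from -0.032 to -0.019. The study used MAANOVA, which was not run here.

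From the median intensities, log2 ratios of Cy5 over Cy3 were normalized by loess within arrays (R 4.3.3, limma 3.58.1), giving control and outlier spots no weight, and spots of one probe were averaged. All 4 groups were fitted together with limma, and p-values were adjusted by Benjamini-Hochberg over 55681 probes in each contrast. The fit was tested on simulated data. Probes were named through RefSeq accessions (27235 named), and a gene is represented by its brightest probe over both dyes. From 51.5% to 61.1% of probes on an array exceeded background clearly in Cy5. Precision is limited by the number of arrays. Mice are separate animals, and their numbers are not shared between groups.

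The members, the gene lists and the tests were chosen with earlier results of these data known. Cxcl5 prompted the choice, so calls against vehicle are counted over the 9 other members. The genes named are the members, their receptors, inducers and regulators, clock and glucocorticoid genes, other CXC genes, markers of neutrophils, club, alveolar, B, T and natural killer cells, platelets, macrophages and fibroblasts, and the 5 genes most like Cxcl5. Of platelet and macrophage markers, 0 of 6 and 0 of 7 were called at each dose by limma, with at most 3 and 2 at an unadjusted p below 0.05. The macrophage marker Msr1 passed the adjusted p but stayed below 1.5-fold. It measured 0.54 at the medium (adjusted p = 0.0219) and 0.58 at the high dose (adjusted p = 0.0173). The alternatives tried are given with the closing results.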

Additional observations from a re-analysis of the deposited data

Results flagged for a closer look

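Among 40 sets of values (10 members in 4 groups), 1 held a mouse far from the others by Dixon's test at the 95% level, which flags about 5% of such sets by chance. Cxcl10 in vehicle mouse 3 had a log2 ratio of 1.44, against -2.08 in the nearest vehicle mouse, and this gap took up 0.865 of the range of the group.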

How the results depend on the processing

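The fold changes of Cxcl5 moved by less than the spread between mice (1 SD, 0.85) under all alternatives, and stayed negative. Leaving out each mouse, they ranged from -2.25 to -1.64 at the low, -2.12 to -1.33 at the medium and -2.49 to -1.91 at the high dose. Of the 9 other members, 1 (Cxcl13) was called at the medium dose, but 0 with normexp correction, scale normalization, the scanner software's ratio (Cxcl13 at -1.44), median centring or only the groups compared. At the high dose 0 were called, but 1 (Cxcl13) with Cy5 alone. Leaving out each mouse gave 0 calls at the low dose, 0 to 1 at the medium and 0 to 1 at the high dose, and 0 between doses throughout. At the medium dose Cxcl13 lost its call without vehicle mice 1 (-0.51) or 3 (-0.56) or medium-dose mice 12 (-0.58) or 13 (-0.50), and without vehicle mouse 4 it was called at the high dose (-0.62). The cause was not tested. Aquantile leaves the ratios as they are by construction. Of 801 values of the other members, 33 changed sign, none of them called. No paired analysis was possible because mouse numbers are not shared between groups.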
